A study of Mus musculus with 135 samples.

Results

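Dazl, Taf7l, Tex101, Slc25a31, Tex11 and Brdt are 6 genes of the germ line among the 53715 genes counted here. They were chosen by name, for promoters that DNA methylation keeps silent in the soma, and selected also on lower levels in knockout samples of this study. Comparisons of a knockout with wild type (WT) are therefore described without a test. Transcripts were counted in 94 single ovulated mouse oocytes (metaphase II) of C57BL6/129 background from WT females and from females labelled Tet1KO or Tet2KO, either young (2 to 4 months of age) or old (10 to 12 months). Young WT held 38 oocytes in 4 sets, young Tet1KO 15 in 2 sets, young Tet2KO 16 in 2 sets, old WT 12 in 2 sets, old Tet1KO 6 in 2 sets and old Tet2KO 7 in 1 set. A set is the oocytes whose titles share an identifier, which served as replicates. Nothing in the labels links a set to an animal, and p-values therefore measure only the spread between these sets, which may be technical. Primordial germ cells (PGCs), the embryonic precursors of eggs and sperm, were purified at E13.5 and gave 1 WT library and 1 library labelled Tet2KO, each from pooled embryos.

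Methylation of cytosines in CpG-rich promoters keeps many germline genes silent in somatic tissue, and PGCs lose this methylation as they colonise the gonad. TET1 and TET2 oxidise 5-methylcytosine, a route towards its removal. DAZL is an RNA-binding protein that controls translation of germ cell messages. BRDT is a bromodomain protein that reads acetylated histones in spermatogenic cells, TAF7L is a germ cell relative of the TFIID subunit TAF7, TEX11 acts in meiotic crossover formation, SLC25A31 is a mitochondrial ADP/ATP carrier of germ cells, and TEX101 is a surface protein of germ cells.

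In the count tables (mm10 build), Dazl lies on chromosome 17 from 50279394 to 50293599 (minus strand), Brdt on chromosome 5 from 107331159 to 107387058 (plus strand) and Slc25a31 on chromosome 3 from 40708855 to 40726096 (plus strand). Tex101 lies on chromosome 7 from 24668007 to 24676675 (minus strand). Tex11 (100838648 to 101059667) and Taf7l (134460118 to 134476490) lie on the minus strand of chromosome X. The RefSeq promoters (GRCm38.p6) of 5 members are shown because promoter methylation is what defines the group, each up to the start or to the nearest annotated exon, 5′ to 3′ on the gene's strand. Capitals mark the E-box CACGTG. The windows are chr17:50293621-50293870 for Dazl, chr5:107330944-107331158 for Brdt, chr3:40708621-40708854 for Slc25a31, chr7:24672051-24672300 for Tex101 and chrX:134476491-134476740 for Taf7l. The Tex101 window lies inside the gene as the count tables annotate it, at a start used by RefSeq.
Dazl: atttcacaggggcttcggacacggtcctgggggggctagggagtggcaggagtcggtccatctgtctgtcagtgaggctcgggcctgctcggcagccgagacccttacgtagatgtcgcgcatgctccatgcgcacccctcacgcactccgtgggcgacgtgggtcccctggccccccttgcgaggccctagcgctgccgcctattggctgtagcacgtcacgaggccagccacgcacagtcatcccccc
Brdt: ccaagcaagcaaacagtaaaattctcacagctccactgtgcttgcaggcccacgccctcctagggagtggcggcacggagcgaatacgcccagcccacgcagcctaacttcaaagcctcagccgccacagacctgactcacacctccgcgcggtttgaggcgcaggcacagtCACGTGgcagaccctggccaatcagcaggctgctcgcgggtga
Slc25a31: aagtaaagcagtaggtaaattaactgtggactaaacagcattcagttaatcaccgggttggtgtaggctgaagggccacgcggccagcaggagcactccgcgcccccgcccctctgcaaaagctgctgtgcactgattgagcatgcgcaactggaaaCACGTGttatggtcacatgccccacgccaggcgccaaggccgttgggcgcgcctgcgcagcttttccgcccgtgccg
Tex101: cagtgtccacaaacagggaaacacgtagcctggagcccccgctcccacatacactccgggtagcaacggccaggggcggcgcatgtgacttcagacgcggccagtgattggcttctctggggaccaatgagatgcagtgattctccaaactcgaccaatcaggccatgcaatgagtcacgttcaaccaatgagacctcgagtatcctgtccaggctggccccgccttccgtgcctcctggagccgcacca
Taf7l: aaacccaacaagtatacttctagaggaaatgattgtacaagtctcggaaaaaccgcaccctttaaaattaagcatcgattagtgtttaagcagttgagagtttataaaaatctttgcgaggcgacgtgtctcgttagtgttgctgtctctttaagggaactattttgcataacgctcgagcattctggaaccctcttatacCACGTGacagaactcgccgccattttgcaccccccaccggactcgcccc
All 5 promoters were richer in CpG than the typical one. Over 300 bases, 250 before and 50 after the start, Dazl held 28 CpG, Brdt 23, Slc25a31 22, Tex101 19 and Taf7l 17, against a median of 7 and an upper quartile of 20 over 32851 promoters of that length. The E-box, which reads the same on both strands, occurred in the promoters of Brdt, Slc25a31 and Taf7l and in 7.15% of all promoters. TCCCGC or its reverse complement GCGGGA, the core of an E2F6-type site, occurred in Slc25a31 alone of the 5, after the start, and in 19.98% of all promoters.

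The members fell into genes that oocytes carried at high or moderate level and genes they did not carry. Dazl and Brdt had the highest levels of the 6, although Dazl was down to 21.7 CPM in 1 oocyte. Over the 13 sets Dazl stood at 1454 ± 503 CPM (CPM are counts scaled to 1 common library total; SD, n = 13 sets) and ranked 83 among all genes by mean CPM, and Brdt stood at 946 ± 180 CPM and ranked 126. Slc25a31 stood at 163 ± 44.2 CPM and Tex11 at 24.9 ± 10.6 CPM, and each of these 4 genes had counts in all 94 oocytes. Tex101 had 0 counts in all 94 oocytes, which allows a level of up to 0.00711 CPM (3 counts over all oocytes; counting error only). Taf7l had 2 counts in all, 1 in set T213 and 1 in set T214, both young Tet2KO. Tex101 and Taf7l were thus below the filter of 1 CPM in 2 sets, and 4 of 6 members were tested.

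Per length, the order Dazl, Brdt, Slc25a31, Tex11 held in 12 of 13 sets, from means of 494, 185, 76.7 and 6.87 RPKM (CPM per kilobase of exon). The exception was the old Tet1KO set of 1 oocyte, with Brdt at 210.8 and Dazl at 172 RPKM. In WT PGCs the order was different. Dazl led there too, at 359 FPKM (the same scale for fragments), followed by Slc25a31 at 63.2, Tex101 at 40.9, Taf7l at 19.21, Tex11 at 13.51 and Brdt at 9.10 FPKM. Brdt was thus the lowest of the 6 in PGCs and the next after Dazl in oocytes, while Tex101 and Taf7l were at or near 0 in oocytes. The tables were normalized separately and were not tested against each other. They also give Brdt different lengths, 5115 bases in the count tables and 2712 in the PGC table, and with the shorter length Brdt would stand at 349 RPKM in oocytes.

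**Figure D1:**
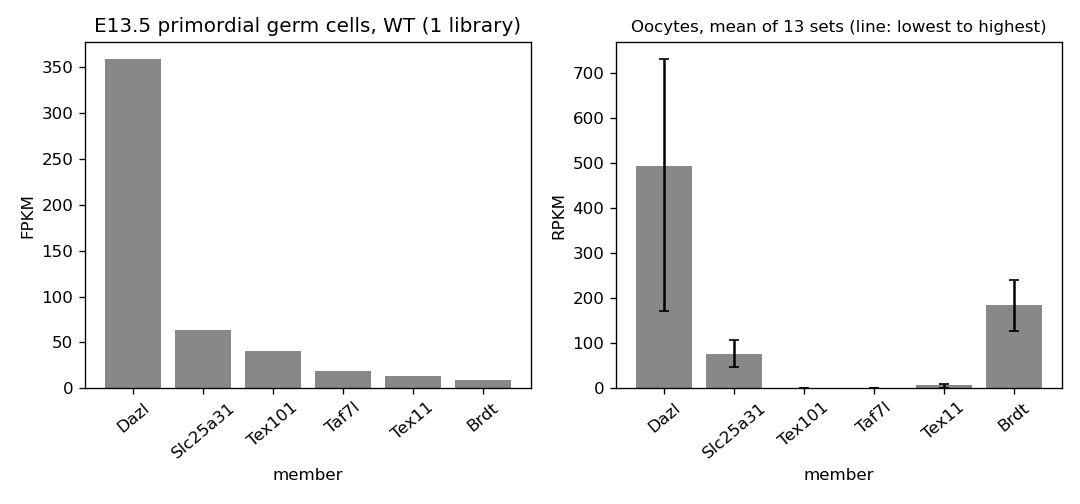
Level per gene length of the 6 members in the WT PGC library (left, FPKM) and in oocytes (right, RPKM, mean of 13 sets with a line from the lowest to the highest set), on axes that start at 0. Tex101 and Taf7l stand at 40.9 and 19.21 FPKM in PGCs and at or near 0 in oocytes, and Brdt stands at 9.10 FPKM and 185 RPKM.

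In PGCs, Taf7l and Tex101 were much lower in the library labelled Tet2KO, Slc25a31 and Tex11 were moderately lower, and Dazl and Brdt were nearly level. Taf7l stood at 19.21 FPKM in WT and 3.70 in the library labelled Tet2KO, 19.3% of WT. Tex101 stood at 40.9 and 12.4 FPKM. Slc25a31 stood at 63.2 and 33.2 FPKM, and Tex11 at 13.51 and 7.75. Dazl stood at 359 and 367 FPKM and Brdt at 9.10 and 8.90. In the authors' deposited table the log2 ratio was -2.38 for Taf7l, -1.72 for Tex101, -0.93 for Slc25a31, -0.80 for Tex11, -0.03 for Brdt and 0.03 for Dazl. With 1 library per genotype there is no test. The count of 5 of 6 members lower stands beside 59.2% of the 12577 genes at 1 FPKM or more in either library, and the count of 2 of 6 lower by at least 2-fold beside 5.08%. The members were selected on lower knockout levels, so nothing is read from these counts.

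Tet2 itself stood at 3.19 FPKM in the WT library and 2.96 in the other, so its level does not separate the libraries. Other germline genes under promoter methylation were also mostly lower. Of 25 at 1 FPKM or more, 22 were lower, beside 59.2% of all genes at that level. By at least 2-fold 2 were lower, beside 5.08%. The median log2 ratio was -0.45, against -0.07 over all genes at that level. The largest decreases were those of Sycp1, of the synaptonemal complex (26.3 and 12.1 FPKM), Tdrd1, of the piRNA pathway (8.06 and 3.63), and Stra8, which starts meiosis (138 and 71.6). Rpl10l (32.6 and 38.5 FPKM), Usp26 (4.88 and 5.08) and D1Pas1 (3.26 and 4.03) were higher. The same share of 59.2% lower stands beside the counts of the lists that follow in this paragraph. The partners of TEX11 were lower in 4 of 6 present, such as Msh5 at 2.87 and 1.38 FPKM. Of 5 messages known as DAZL targets, which apart from Tpx2 are also on that germline list, 4 were lower, Sycp3 at 41.4 and 22.2 FPKM, while Tpx2 stood at 55.6 and 58.3. Among paralogs of the members at 1 FPKM or more, 5 of 7 were higher, such as Slc25a4 at 352 and 394 FPKM, while Boll stood at 7.30 and 5.21 and Taf7 at 11.9 and 11.6. Silencers of germline genes (PRC1.6 and H3K9 methylation) were split, 6 lower and 7 higher of 13.

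Most markers of the gonadal soma moved with these differences. Of 10 such markers 8 were lower in the library labelled Tet2KO. Of the 7 at 1 FPKM or more 6 were lower, beside 59.2% of all genes at that level. The summed level of the 10 was 71.96 FPKM in WT and 30.7 in the other. Wt1 stood at 21.7 and 9.45 FPKM, Gata4 at 18.5 and 6.38 and Foxl2 at 5.98 and 1.52. Tcf21 was slightly lower (6.39 and 5.45 FPKM), and Star (1.48 and 1.6) and Cyp17a1 (0.09 and 0.14) were higher. None of the 10 was at 0, and Amh (0.16 and 0.06 FPKM) and Sox9 (0.76 and 0.55) were low in both. Of 8 fetal germ cell markers 7 were slightly higher, with Pou5f1 at 473 and 538 FPKM, and Ddx4 was lower at 128 and 93.7. Among markers of embryo sex, Xist stood at 2.56 FPKM in WT and 1.70 in the other. Ddx3y (0.02 and 0.01) and Nanos2 (0.07 and 0.01) were near 0 in both, and Eif2s3y, Kdm5d and Uty had no value. The part of the somatic cells, or of the stage and sex of the pooled embryos, in the members' values was not tested. In these bulk libraries fewer cells carrying a transcript and less transcript per cell cannot be told apart.

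**Figure D2:**
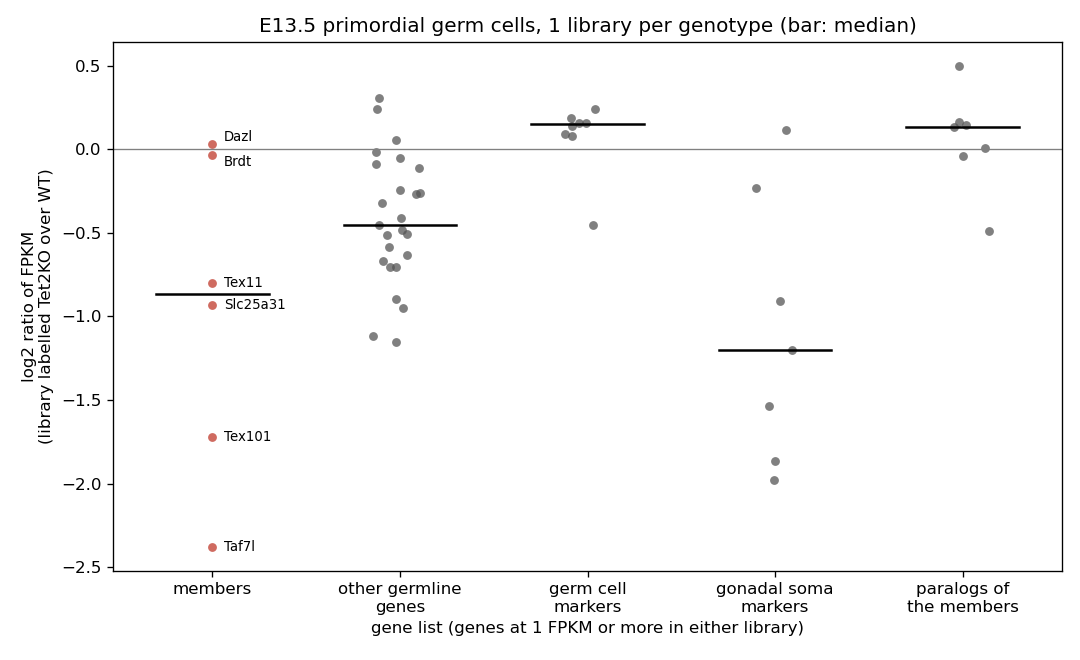
Log2 ratio of FPKM (library labelled Tet2KO over WT) for the members (red) and 4 other gene lists, each point 1 gene at 1 FPKM or more in either library and each bar the list's median. Taf7l (-2.38) and Tex101 (-1.72) are the lowest members, and the gonadal soma markers have a median of -1.20.

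In oocytes Tet1 was nearly absent under the Tet1KO label, while Tet2 separated the labels less clearly. Tet1 had 2 counts in 15 young Tet1KO oocytes and 1 count in 6 old ones, against 495 in 38 young WT and 82 in 12 old WT oocytes. Tet2 stood at 1.24 ± 0.0836 CPM in young Tet2KO (n = 2 sets) and 1.27 in old Tet2KO, against 2.41 ± 0.705 in young WT (n = 4) and 4.03 ± 1.03 in old WT (n = 2). Tet2 was thus present under the Tet2KO label, and it stood at 1.68 ± 0.286 CPM in young Tet1KO and 1.62 ± 0.922 in old Tet1KO (n = 2 each), not far above Tet2KO. Oocyte markers were high in every set (Gdf9 at 3950 to 10487 CPM). Total counts per oocyte ranged from 2354503 to 12472307. Oocyte S1616 of the old Tet2KO set summed 1509 CPM of macrophage markers, against at most 46.5 in any other oocyte. In the young WT set with a numbered name, 3 oocytes had summed ribosomal protein transcripts of 3787 to 7343 CPM, against at most 2357 elsewhere. Sets have T, S or numbered names (the naming series), and numbered sets were deposited in a separate count table. Young WT has 3 T sets and 1 numbered set, young Tet1KO 1 of each, young Tet2KO T sets only, old WT and old Tet1KO numbered sets only, and old Tet2KO the S set.

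Between Tet1KO and WT, Dazl had the largest fitted difference of the 4 members at both ages, and it was lower in Tet1KO. In Tet2KO other members had larger ones. It stood at 1457, 1595, 1632 and 1194 CPM in young WT (sets T148, T211, T231 and the numbered set), and at 970 and 848 CPM in young Tet1KO (T146 and the numbered set). In old oocytes it stood at 2154 and 2025 CPM in WT (sets of 5 and 7 oocytes), and at 1055 and 505 CPM in Tet1KO (sets of 5 and 1). All 4 Tet1KO sets lay below all 6 WT sets, a pattern met by 1.6% of the 14418 genes tested, and below all 9 other sets, met by 1.24%. The fitted log2 difference from WT was -0.56 in young oocytes (-0.85 with limma) and -1.28 in old ones, and it was -0.89 in old oocytes without the set of 1 oocyte. The order held within the naming series: T146 lay below the 3 T sets of young WT, and the numbered young Tet1KO set below the numbered young WT set.

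In Tet2KO oocytes Dazl lay above WT in young sets and below it in the old set. Young Tet2KO sets T213 and T214 stood at 1858 and 1673 CPM, above all 4 young WT sets. The old Tet2KO set S161 stood at 1934 CPM, below both old WT sets. From high to low the groups ran old WT (2090 ± 91.3 CPM), old Tet2KO (1934), young Tet2KO (1766 ± 131), young WT (1469 ± 198), young Tet1KO (909 ± 86.4) and old Tet1KO (780 ± 389). The set ranges of neighbours in this order overlapped only between the Tet1KO groups. Old Tet2KO is 1 set and so has no range, and the groups differ in naming series. The share of all genes separated in these ways was not counted, so this is a description.

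Single oocytes showed that Dazl was uneven among Tet1KO oocytes. In young Tet1KO it ran from 21.7 to 1552 CPM with a median of 847 over 15 oocytes, and in old Tet1KO from 328 to 1533 with a median of 1093 over 6. In young WT it ran from 848 to 1819 with a median of 1459 over 38 oocytes, and in old WT from 1420 to 2562 with a median of 2103 over 12. Of 21 Tet1KO oocytes 10 lay below the lowest WT oocyte, and of 23 Tet2KO oocytes 0 did. That WT oocyte, of the numbered young set, stood at 848.2 CPM, and T1464 (847.2 CPM) and T1467 (847.3 CPM) lay only just below it. Oocytes of a set are not replicates, and the share of all genes with such a count was not determined, so this is a description. The lowest oocyte, in the numbered young Tet1KO set, had 104 Dazl counts (21.7 CPM). It had Brdt at 943 CPM, Slc25a31 at 137 CPM and Tex11 at 7.30 CPM. Brdt and Slc25a31 lay above the level of its whole set in that oocyte, and Tex11 below it.

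Within sets of 5 or more oocytes, the coefficient of variation (CV) of Dazl was 55.7% in the numbered young Tet1KO set, 35.6% in T146 and 43.7% in the old Tet1KO set of 5 oocytes, and 5.44% to 21.4% in the 9 other sets. Slc25a31 had 28.1%, 36.8% and 43.2% in the same Tet1KO sets and 9.87% to 27.4% in the others. This spread was looked at after the values were seen, and it compares the genotypes on which the members were selected, so it is a description. Of 1824 genes at a mean of 100 CPM or more, 6 (0.329%) had every Tet1KO set above every other set, namely Dazl, Slc25a31, AU022751, Creld2, Gm6201 and Ube2t, and at 10 CPM or more the share was 0.333%. Without the lowest oocyte of each set, Dazl stayed above the other sets in both young Tet1KO sets, at 33.4% in the numbered set and 32.9% in T146, and had 19.7% in the old set, within the other sets' range. Slc25a31 stayed above them in the old set, at 27.8%, and fell within their range in the numbered young set, at 25.8%, and in T146, at 11.5%, whose lowest oocyte stood at 24.5 CPM. Brdt did not show the pattern, with 8.43% in T146.

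**Figure D3:**
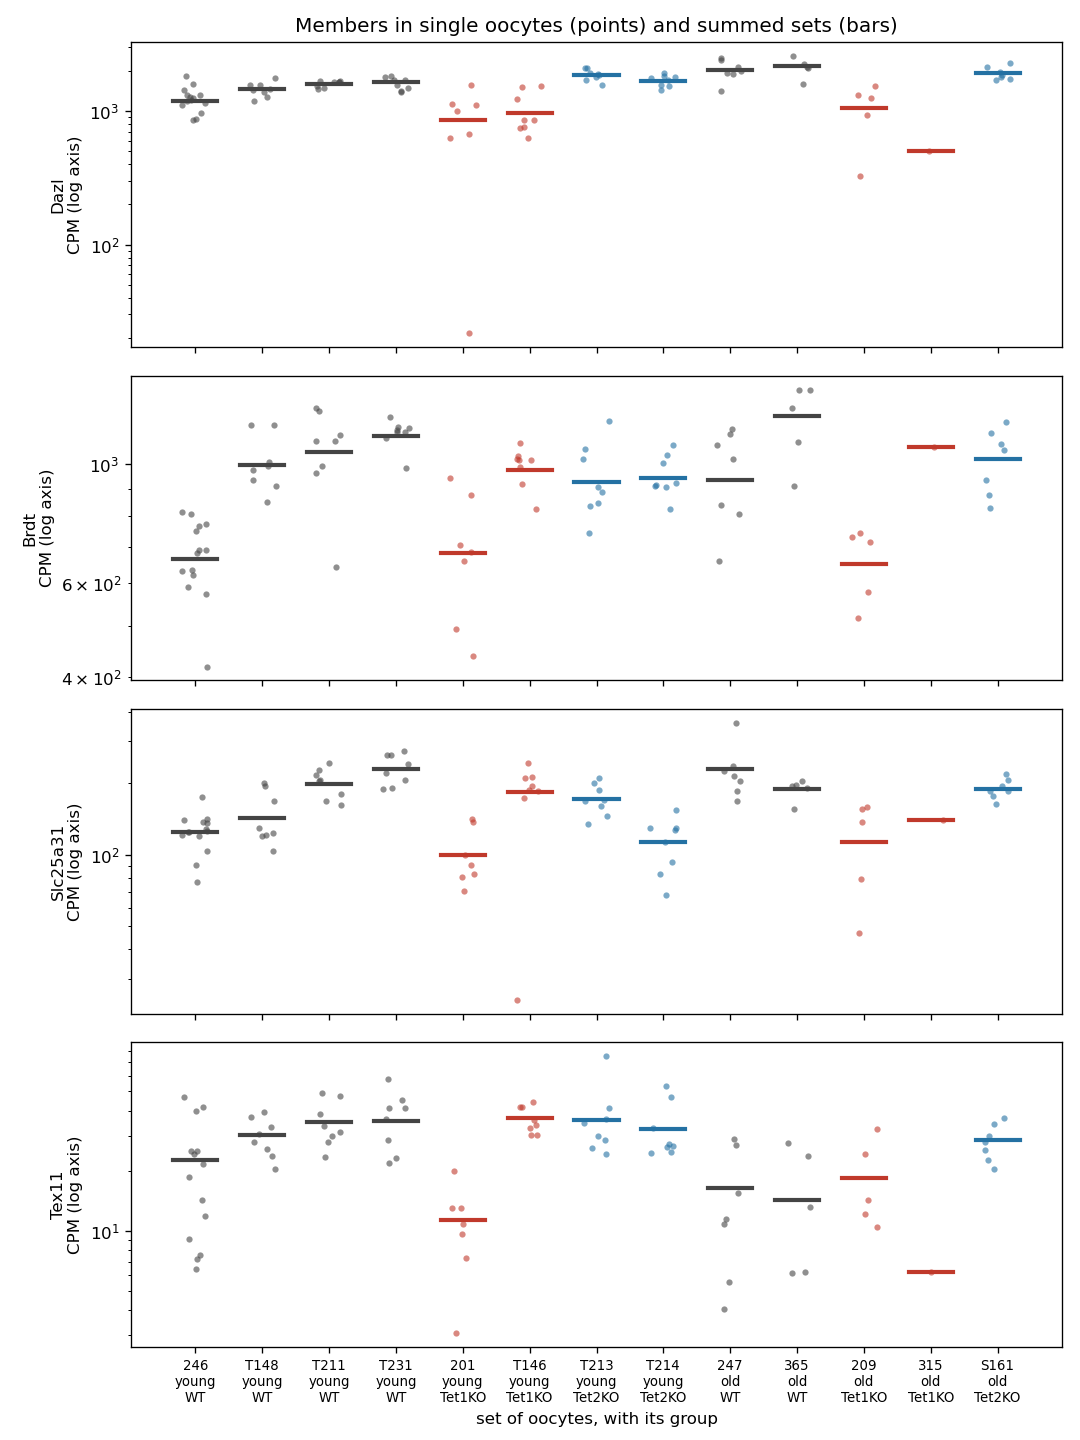
CPM (log axis) of the 4 members found in oocytes, by set; points are single oocytes, bars the summed set, in grey for WT, red for Tet1KO and blue for Tet2KO. Dazl in Tet1KO sets is low and spread out, down to 21.7 CPM in 1 oocyte of the numbered young set, and the Tet2KO sets lie at 1673 to 1934 CPM.

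Brdt differed little between genotypes. It stood at 995, 1057, 1131 and 667 CPM in young WT, with the sets in the same order as for Dazl, at 978 and 682 in young Tet1KO and at 927 and 943 in young Tet2KO. In old oocytes it stood at 1230 and 935 CPM in WT, 651 and 1078 in Tet1KO and 1022 in Tet2KO. The numbered sets of WT and of Tet1KO were the lowest of the young sets. The set ranges of all neighbouring groups overlapped. The fitted log2 difference of old Tet1KO from old WT was -0.14. It was -0.64 without the set of 1 oocyte and 0.24 without the set of 5.

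Slc25a31 stood at 143, 199, 228 and 124 CPM in young WT, at 183 and 99.6 in young Tet1KO and at 172 and 113 in young Tet2KO. These groups overlapped. In old oocytes it stood at 188 and 230 CPM in WT, 113 and 140 in Tet1KO and 190 in Tet2KO. Both old Tet1KO sets lay below both old WT sets, with a fitted log2 difference of -0.55, which was -0.33 without the Tet1KO set of 5 oocytes. The share of all genes separated in this way, with 2 sets in each group, was not counted. Slc25a31 was selected on knockout levels, so nothing is read from the separation. Its paralog Slc25a4 stood at 9.48 ± 1.68 CPM in old Tet1KO and 21.1 ± 2.55 in old WT (n = 2 sets each), which did not pass edgeR's test (adjusted p = 0.222). Of the 6 paralogs of the members tested there, 2 had an unadjusted p under 0.05 with edgeR, beside 1794 of 14418 genes. DESeq2 called 1 of the 6 and limma 0.

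Tex11 had the highest CV over the 13 sets of the 4 members, 42.5%, against 19.03% for Brdt. It stood at 30.1, 35.05, 35.6 and 22.7 CPM in young WT, at 36.7 and 11.3 in young Tet1KO and at 35.96 and 32.4 in young Tet2KO. In old oocytes it stood at 14.3 and 16.3 CPM in WT, 18.5 and 6.18 in Tet1KO and 28.5 in Tet2KO. The T and S sets, from 28.5 CPM up, all lay above the numbered sets, from 22.7 CPM down. The fitted difference of old Tet1KO from old WT was -0.15, and it was -1.06 without the Tet1KO set of 5 oocytes and 0.37 without the set of 1. Naming series and age coincide in old WT, which has numbered sets only. The genes annotated across Tex11 (Gm24577, Gm27510 and Gm14901) and Brdt (Gm8152) shared 0 exon bases with them and had 0 counts.

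In the descriptive comparisons with WT, 4 of 4 members had a fitted change below 0 in young Tet1KO, beside 49.6% of all genes, and 4 of 4 in old Tet1KO, beside 51.0%. In young Tet2KO 3 of 4 were below 0, beside 50.8%, and in old Tet2KO 3 of 4, beside 50.9%. The values in young Tet2KO were 0.16 for Dazl, -0.48 for Slc25a31, -0.13 for Tex11 and -0.20 for Brdt. The Tex11 means go the other way, 34.2 CPM in young Tet2KO and 30.9 in young WT, and without the naming term its value was 0.11. In old Tet2KO, without a naming term, they were -0.12 for Dazl, -0.15 for Slc25a31, 0.89 for Tex11 and -0.09 for Brdt, and without the oocyte with macrophage transcripts -0.16, -0.18, 0.82 and -0.13. The selection fixes these counts in part, so nothing is read from them.

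Old and young WT oocytes were tested with edgeR's quasi-likelihood test over all 14418 genes. This comparison was not used to choose the members, although it shares sets with the comparisons that were. No member passed. From young to old WT, Dazl had a log2 change of 0.69 (SE 0.28, edgeR adjusted p = 0.343). Both old sets lay above all 4 young sets, but the old sets are numbered and 3 of the 4 young ones are T sets. The share of all genes with this order was not counted. Slc25a31 had 0.77 (SE 0.30, edgeR adjusted p = 0.323), Brdt 0.60 (SE 0.29, edgeR adjusted p = 0.420) and Tex11 -0.32 (SE 0.43, edgeR adjusted p = 0.795). The count was 0 of 4, beside 0.0416% of all genes, with 2 of 4 at an unadjusted p under 0.05, beside 1873 of 14418 genes, and 0 called by DESeq2 or limma. Without the naming term the change was 0.25 for Slc25a31 and 0.15 for Brdt. Tex11 stood at 15.3 ± 1.46 CPM in old WT (n = 2 sets) and 30.9 ± 5.99 in young WT (n = 4), a wider gap than its fitted change.

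Between young Tet1KO and young Tet2KO, the members are described without a test, because the Tet1KO levels entered their selection. Dazl stood at 909 ± 86.4 CPM in Tet1KO and 1766 ± 131 in Tet2KO (n = 2 sets each), a fitted log2 difference of -0.73. Slc25a31 stood at 141 ± 58.8 and 142 ± 41.9 CPM and Brdt at 830 ± 209.3 and 935 ± 11.1. The fitted differences of these genes, 0.36 and 0.19, have the opposite sign to their means, and without the naming term they were 0.08 and -0.08. Tex11 differed by -0.12. Age within a knockout also compares sets whose levels entered the selection, so it is likewise described without a test. From young to old Tet1KO the fitted changes ran from -0.22 (Tex11) to 0.47 (Brdt). That of Slc25a31, 0.34, has the opposite sign to its means, 141 and 126 CPM. Here 0 of 4 were called beside 0.0139% of all genes, and 0 had an unadjusted p under 0.05. From young to old Tet2KO, with 1 old set assumed to vary like the others, they ran from -0.25 (Tex11) to 0.43 (Slc25a31), and 0 of 4 were called beside 0.00694%, with 0 at an unadjusted p under 0.05. DESeq2 and limma called 0 members in both.

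**Figure D4:**
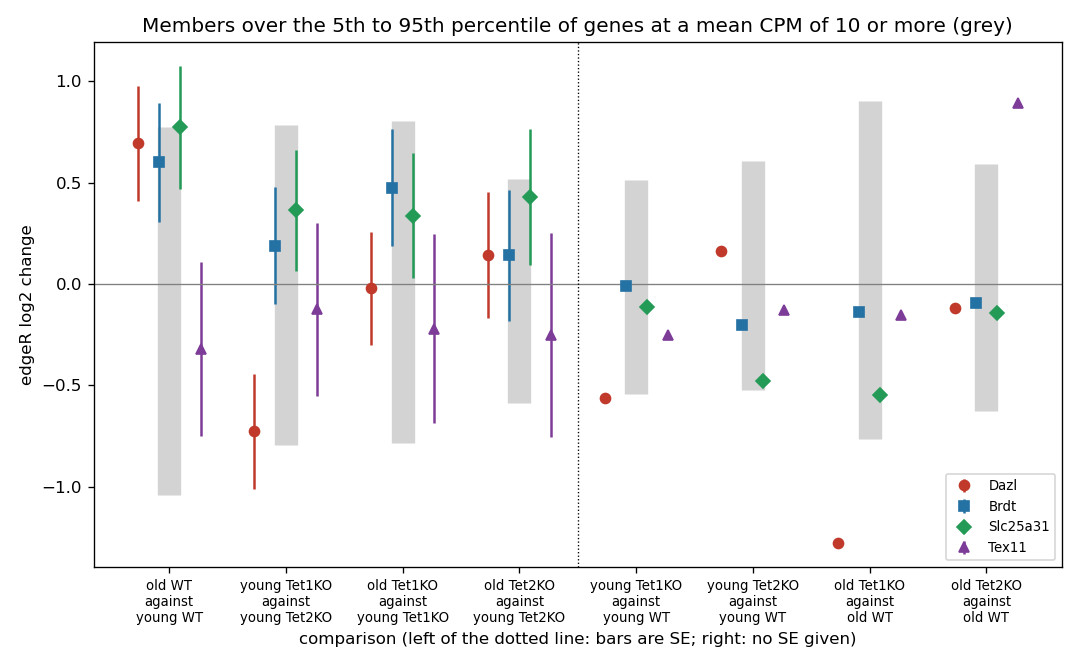
EdgeR log2 change of the 4 tested members in 8 comparisons, with SE in 4 of them (left of the dotted line), over the 5th to 95th percentile of the 6907 genes at a mean of 10 CPM or more (grey). Only old against young WT is read as a test of the members. The other SE belong to comparisons of sets whose levels entered the selection. Dazl lies at -1.28 in old Tet1KO against old WT and -0.56 in young Tet1KO against young WT. The grey range starts at -0.76 and -0.54 there, so the young value lies only just below it. These were not tested, and Dazl was selected on lower knockout levels, so nothing is read from its place below the range.

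No other germline gene under promoter methylation passed edgeR's test between a knockout and WT in oocytes. In old Tet1KO against old WT, 16 of 23 tested were lower with a median log2 difference of -0.31 beside -0.01 over all genes, and in young Tet1KO 13 of 23 were lower with a median of -0.08 beside 0.00. EdgeR called 0 in both (background 0.0347% and 0.0208%), while 7 and 2 had an unadjusted p under 0.05, beside 1794 and 691 of 14418 genes, DESeq2 called 2 and 0, beside 300 and 30, and limma 0 in both. Against WT, 10 of 23 were lower in young Tet2KO and 10 of 23 in old Tet2KO, with 0 called by edgeR, DESeq2 or limma, 0 at an unadjusted p under 0.05 and backgrounds of 0.0139% in both. Tex19.1, a repressor of transposons, stood at 209.3 ± 89.8 CPM in old Tet1KO and 222 ± 0.135 in old WT. Between old and young WT, edgeR and limma each called 1 gene of this list and DESeq2 called 2, and 9 of 23 had an unadjusted p under 0.05, beside 1873 of 14418 genes. EdgeR's call was Tex15, which acts in meiosis and piRNA-guided silencing, at 66.8 ± 12.4 CPM in old WT and 26.02 ± 20.3 in young WT (log2 change 5.92, SE 0.72, edgeR adjusted p = 0.0224). That call was lost without the numbered young WT set, at 0.645 CPM (log2 change 4.71, edgeR adjusted p = 0.322). It was also lost without the old WT set of 7 or of 5 oocytes (edgeR adjusted p = 0.204 and 0.0822) and without the naming term, where the change was 1.35.

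Messages known as DAZL targets did not pass edgeR's test in Tet1KO oocytes. In old Tet1KO against old WT 4 of 5 were lower, beside 51.0% of all genes, with a median of -0.20 beside -0.01. Sycp3, of the synaptonemal complex, stood at 27.9 ± 3.70 CPM against 77.9 ± 19.4 (log2 difference -1.32, SE 0.35, edgeR adjusted p = 0.220), and Tpx2, a spindle protein whose translation DAZL promotes, at 244 ± 12.4 against 284 ± 9.68. Of these 5, 2 had an unadjusted p under 0.05, beside 1794 of 14418 genes, DESeq2 called 1, beside 300 genes in all, and limma 0. In young Tet1KO 2 of 5 were lower, beside 49.6%, with 0 called by any of the 3 tools and 0 at an unadjusted p under 0.05. Of the partners of TEX11, Msh4 was by far the most abundant in oocytes, at 166 ± 26.2 CPM over 13 sets, against 4.72 ± 4.08 for Ccnb1ip1 and 3.31 ± 0.761 for Hfm1. Among silencers of germline genes Rnf2 (435 ± 100.2 CPM), Atf7ip (361 ± 123) and Pcgf6 (314 ± 82.1) were the most abundant, and edgeR called 0 of 10 in each comparison with WT. In old Tet1KO against old WT 3 of these 10 had an unadjusted p under 0.05 and DESeq2 called 2, beside the same 1794 and 300 of all genes, and limma called 0. In the other comparisons of a knockout with WT all these counts were 0.

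Over the 13 sets, Pearson's r of log2 CPM was 0.66 between Slc25a31 and Brdt, 0.51 between Dazl and Tex11, 0.40 between Dazl and Slc25a31, 0.19 between Slc25a31 and Tex11, 0.12 between Dazl and Brdt and -0.06 between Tex11 and Brdt. Among the oocytes of a set, in the 10 sets of 6 or more, the median r was 0.64 for Dazl and Brdt (from -0.49 to 0.93, above 0 in 8 sets), 0.49 for Slc25a31 and Brdt (above 0 in 8) and between -0.28 and 0.15 for the other pairs. The genes with the pattern most like a member's, among 6906 at a mean of 10 CPM or more, were Dtymk, Timm8a2, Calr, Tmem47 and Lactb2 for Dazl (r from 0.910 to 0.883), Uba3, Abhd18, Lrr1, Tsc22d2 and Twf1 for Slc25a31 (0.913 to 0.881), Wdr33, Hnrnpk, Gm6382, Gm43513 and Phospho2 for Brdt (0.938 to 0.906), and AA545190, Gm13465, Plcl1, Obox1 and Pdzph1 for Tex11 (0.966 to 0.959). These are descriptions over 13 sets that share naming series and depth.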

How the data were processed

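The authors deposited oocyte data as raw gene counts. Per the file headers, these came from featureCounts 1.6.2 on the GENCODE annotation of mouse (release 17), with mapping quality 30 or more, multi-mapped and overlapping reads counted and no strand option. HISAT2, SAMtools and mm10 are named in the submitters' processing notes. PGC values were deposited by the authors as FPKM with a log2 ratio; the unit is inferred from the values and depth is unknown. Of 135 samples, 39 that repeat the titles of used oocytes for another count table, nearly all with a conflicting age or genotype label, were not used, nor were their 39 count columns.

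Counts were summed per set. No 2 of the 342 oocyte pairs within sets were identical. Genes at 1 CPM or more in at least 2 sets were fitted together with edgeR 4.0.16 in R 4.3.3 (TMM, quasi-likelihood F test, 1 mean per group and a naming series term, Benjamini-Hochberg, threshold 0.05), with DESeq2 1.42.0 and limma 3.58.1 as alternatives. Old Tet2KO against old WT had no series term. Young Tet1KO against young Tet2KO and old against young within each knockout were planned as tests. Their p-values for the members are not given. The fit was tested on simulated data. Named genes are the members, the Tet genes, paralogs, overlapping genes, the 5 most alike per member and, of each list, called genes or those of highest mean CPM; others named for PGCs or for the oocyte spread were chosen after their values were seen. The members and lists were chosen with earlier results of these data known.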

Additional observations from a re-analysis of the deposited data

Results flagged for a closer look

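Dazl differed from WT in opposite directions in Tet2KO oocytes of the 2 ages, and by little in the old set. Both young Tet2KO sets lay above all 4 young WT sets, and the old Tet2KO set lay below both old WT sets. The log2 ratio of means was 0.26 in young and -0.11 in old oocytes, a difference of -0.38. The difference was not tested, the old group is 1 set, and the members were selected on knockout levels. Old Tet2KO has the S set and old WT numbered sets only, so genotype and naming series cannot be told apart there. The share of all genes with this pattern was not counted.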

How the results depend on the processing

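The alternatives were another size factor, no filter on low counts, DESeq2, limma, no naming term, each set left out, and, chosen after seeing the data, leaving out the 3 ribosomal-rich oocytes, the young Tet1KO oocyte whose Pnpla3 (128 CPM) matched set T146 and not its own, or the oocyte with macrophage transcripts. Under each of them 0 members were called in old against young WT, and each count of members below WT stayed within 1.5 times. The PGC count of 5 was the same with a pseudocount of 1 or 0.1 FPKM. Of the uncalled log2 changes some turned sign. Leaving out sets, Tex11 ran from -0.66 to 0.51 in old against young WT, from -0.96 to 0.19 in young Tet1KO against young Tet2KO and from -1.13 to 0.29 in old against young Tet1KO, where Dazl ran from -0.55 to 0.35 and Brdt from -0.042 to 0.85. Without the ribosomal-rich oocytes Tex11 stood at 0.077 in old against young WT and 0.022 in young Tet1KO against young Tet2KO. Without the naming term Brdt stood at -0.076 in the latter and Slc25a31 at -0.058 in old against young Tet1KO, where Dazl stood at 0.17 with limma and 0.020 without the oocyte with high Pnpla3. The causes were not tested. Over all genes edgeR called 6 in old against young WT (DESeq2 327, no filter 669, no naming term 0), 0 in young Tet1KO against young Tet2KO (64, 536 and 1), 2 in old against young Tet1KO (124, 377 and 0) and 1 in old against young Tet2KO (20, 308 and 1). Leaving out sets, these counts ran from 0 to 41, 0 to 3, 1 to 180 and 0 to 4. Against WT edgeR called 3 in young Tet1KO (DESeq2 30, no filter 252), 2 in young Tet2KO (16 and 226), 2 in old Tet2KO (11 and 243) and 5 in old Tet1KO (300 and 564). Leaving out sets, these ran from 2 to 8 (8 without T146), 2 to 3, 0 to 3 and 0 to 16 (0 without the old WT set of 7 oocytes, 16 without the old Tet1KO set of 5). Limma called 6, 0, 3 and 0 in the comparisons not against WT and 0, 0, 0 and 5 in those against WT. Old Tet2KO against old WT has no naming term to leave out, and leaving out its only set gives no value. No paired analysis was possible because the groups share no replicate numbers.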
